A study of Homo sapiens with 3 samples.

Results

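The genes described here encode the proteins of the cytosolic ribosome, measured in HCC827, an established human line of non-small cell lung cancer. They were taken by symbol (RPL and RPS followed by a number, RPLP0 to RPLP2, and RPSA) on chromosomes 1 to 22 and X, and chosen by their measured level, which had to reach 1 FPKM in 1 library or more. FPKM is the number of sequenced fragments per kilobase of a transcript, scaled to 1000000 mapped in the library. The choice gave 80 rows, or 78 genes, out of 83 rows and 80 genes that match by symbol and chromosome and out of 30866 genes in the table. The large subunit is represented by 47 of them and the small subunit by 31. RNA was sequenced from 3 populations, 1 library each. The dual-resistant cells came out of the erlotinib-resistant population after 10 days in which crizotinib at 0.2 µM was added to erlotinib at 2 µM. The erlotinib-resistant cells had been selected for 47 days in 2 µM erlotinib alone. The vehicle cells were given 0.1% DMSO for 4 days. Erlotinib blocks the kinase of the EGF receptor and crizotinib that of MET. All 3 populations came from a polyclonal pool carrying the ClonTracer barcode library, so each is a mixture of clones. Drug, days in culture and resistance differed together and cannot be told apart.

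A ribosome consists of ribosomal RNA and a fixed set of proteins, nearly all present at the same number of copies per particle. The small subunit reads the mRNA and the large subunit joins the amino acids. Ribosomal protein mRNAs are among the most abundant of a growing cell. Most begin with a terminal oligopyrimidine (TOP) tract, a C followed by a run of C and T, through which the kinase complex mTORC1 controls their translation. An mRNA level is therefore not a measure of how fast the protein is made, and only mRNA was measured here.

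The measured values entered the choice of genes through the minimum of 1 FPKM. Just inside it stood a row of RPL9 on the X chromosome, at 1.21 FPKM in vehicle cells. Below it stood RPL3L, a paralogue of RPL3 known from muscle, at 0.0193 FPKM in dual-resistant cells and listed at 0 in the others. RPL10L, a paralogue of RPL10 known from testis, was listed at 0 in all 3. None of the 78 genes was listed at 0 or missing in a library. FAU, which lies outside the choice by its symbol and encodes a ubiquitin-like protein fused to a small subunit protein, stood at 929 FPKM in dual-resistant, 895 in erlotinib-resistant and 1066 in vehicle cells.

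Sequence at the transcription start is a feature these genes share that played no part in their choice. Of the 78 genes, 62 were found in the promoter table of RefSeq (GRCh38.p14), and 46 of those (74.2%) had an annotated start at a C followed by at least 4 bases that are each C or T. Of all 27305 genes in that table, 5.14% had such a start. The windows shown run from 10 bases before the start to 20 bases from the start on, for the 5 lowest and 4 of the 5 highest genes of the comparison between dual-resistant and vehicle cells, the other being RPL23. They are shown because both ends can then be compared letter by letter. Capitals mark the tract, and the window in lower case throughout has none at its annotated start.
RPS14 (chr5:150449720-150449749, minus strand): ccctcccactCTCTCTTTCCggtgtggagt
RPL24 (chr3:101686699-101686728, minus strand): atgattctctCTTTCTTTTCgccatctttt
RPS6 (chr9:19380217-19380246, minus strand): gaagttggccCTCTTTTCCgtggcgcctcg
RPS18 (chr6:33272065-33272094, plus strand): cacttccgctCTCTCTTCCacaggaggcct
RPS29 (chr14:49598691-49598720, minus strand): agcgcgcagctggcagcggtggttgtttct
RPS25 (chr11:119018324-119018353, minus strand): gcagcgcttcCTTTTTgtccgacatcttga
RPL38 (chr17:74203668-74203697, plus strand): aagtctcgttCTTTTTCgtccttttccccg
RPSA (chr3:39406710-39406739, plus strand): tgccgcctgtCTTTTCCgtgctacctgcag
RPL22 (chr1:6199576-6199605, minus strand): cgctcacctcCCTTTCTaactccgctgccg
Both ends of the comparison held genes with the tract, whose length over the 46 genes was 5 to 19 bases with a median of 8. Those 46 genes had a median log2 difference of -0.42 between dual-resistant and vehicle cells. The 16 genes with no tract at a start in the promoter table had one of -0.38. Which start the cells used was not tested, so a gene of the 16 may still carry a tract at another start. The letters CCGGAAG, the core that ETS factors bind, were present on either strand of the promoter windows of 35.5% of the 62 genes and of 12.2% of all genes in the table. The letters AAGATGGCG, part of the YY1 site, were present in 8.06% of the 62 and 2.14% of all, and they can overlap the ETS letters by their first 3 bases. GGGCGG, the core of the SP1 site, was present in 58.1% of the 62 and 48.3% of all, and TATAAA in 8.06% of the 62 and 13.99% of all. These are matches of letters in windows of 250 bases before and 50 bases from the start on, not sites shown to be bound.

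Ribosomal protein mRNAs were at the top of the expression range in every population. Their summed level made up 20.01% of all FPKM in dual-resistant, 24.1% in erlotinib-resistant and 22.5% in vehicle cells. Among the 100 highest genes of each library, 57 were ribosomal protein genes in dual-resistant, 59 in erlotinib-resistant and 58 in vehicle cells. In RNA from whole populations, fewer cells that express a gene and less of its RNA per cell cannot be told apart. The median ribosomal protein gene stood at 1140.5 FPKM in dual-resistant, 1524 in erlotinib-resistant and 1487 in vehicle cells. At 1000 FPKM or more stood 44 of the 78 genes in dual-resistant and 54 in each of the erlotinib-resistant and vehicle libraries. In each library, 76 genes were at 100 FPKM or more, and the quartiles of the 78 lay 2.77-fold apart in dual-resistant, 2.80-fold in erlotinib-resistant and 2.99-fold in vehicle cells.

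The order of the genes by level was much the same in the 3 libraries. Across the 78 genes, Spearman's rho of the levels was 0.92 between dual-resistant and vehicle, 0.96 between dual-resistant and erlotinib-resistant and 0.95 between erlotinib-resistant and vehicle cells. The 5 highest by mean level were RPS29, RPS18, RPL19, RPL37A and RPL26. RPS29, a small zinc-binding protein of the small subunit (Entrez ID 6235, at 50044042 to 50053094 on chromosome 14 in GRCh37, the build of all gene positions given), stood at 2782 FPKM in dual-resistant, 4810.5 in erlotinib-resistant and 5850.1 in vehicle cells. RPL37A stood at 2885 FPKM in dual-resistant, 4185 in erlotinib-resistant and 4594 in vehicle cells, and RPL26 at 3184 FPKM in dual-resistant, 3850.1 in erlotinib-resistant and 3715 in vehicle cells. RPL39L, RPL22, RPL27A and RPS28 were among the 5 lowest. RPL27A stood at 151 FPKM in dual-resistant, 165 in erlotinib-resistant and 159.9 in vehicle cells, and RPS28 at 173 FPKM in dual-resistant, 214 in erlotinib-resistant and 155 in vehicle cells.

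Levels of single genes in this family are uncertain where copies share reads. By symbol in GENCODE 29, 76 of the 78 genes have at least 1 pseudogene, with a median of 9.5, and RPL23A has the most, 91. Across the 78 genes, Spearman's rho between the number of pseudogenes and the level was -0.12 in dual-resistant, -0.04 in erlotinib-resistant and -0.09 in vehicle cells. RPL9 has 3 rows and RPL36A is overlapped by a readthrough gene, so their levels are uncertain.

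**Figure D1:**
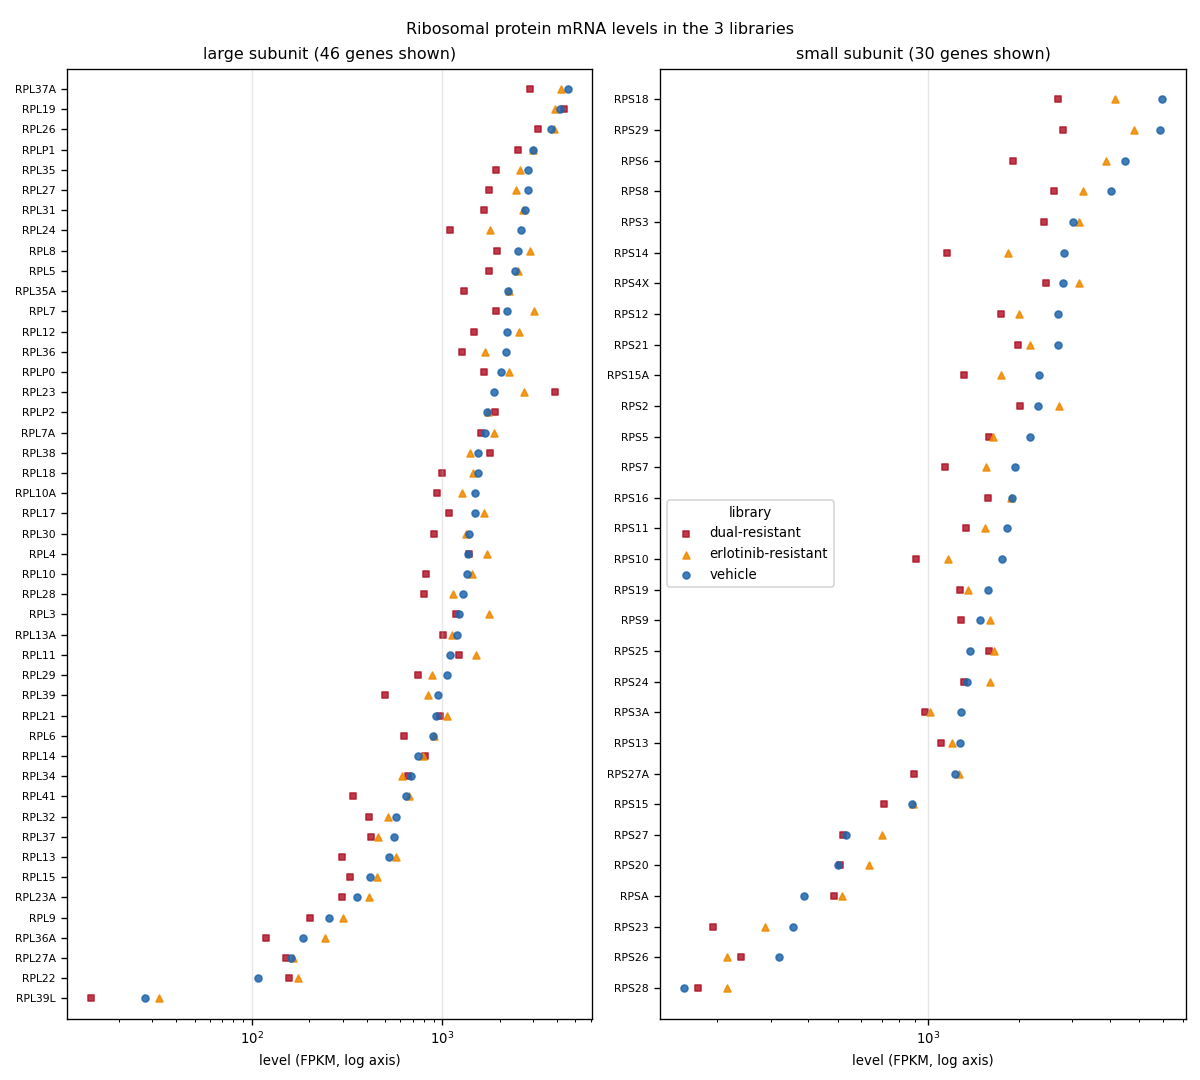
Levels of 76 of the 78 ribosomal protein genes in FPKM on a log axis, large subunit on the left and small subunit on the right, sorted by the level in vehicle cells, with 1 point per library. Most squares (dual-resistant) lie left of the other symbols, and RPL23 is the clearest exception.

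Erlotinib-resistant cells were first set against vehicle cells, to ask whether ribosomal protein mRNAs differed after selection in erlotinib. No gene of the 78 reached the 2-fold limit used throughout, a log2 difference of FPKM + 1 of 1 or more in either direction. Among all 13381 genes compared, 3.81% were higher and 6.03% lower by that limit. The median log2 difference of the 78 genes was 0.01, beside 0.00095 over all genes, and 40 genes were above 0 and 38 below. Of all genes 49.5% were below 0. Among 466 other genes with at least 100 FPKM in every library, the median was -0.16 and 65.5% were below 0. At a log2 limit of 0.5, 3 of the 78 were higher and 6 lower, where 16.0% of all genes were higher and 17.4% lower. With 1 library per population no difference has a test or an error estimate.

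The medians of the subunits lay apart in this comparison, a difference with no test. The median log2 difference was 0.04 for the large subunit and -0.23 for the small subunit, a gap of 0.27, with values of -0.56 to 0.68 in the large and -0.62 to 0.46 in the small subunit. The summed level of the small subunit genes was 53762 FPKM in erlotinib-resistant and 61189 in vehicle cells, lower by 12.1%, and that of the large subunit genes 73788 FPKM in erlotinib-resistant and 72969 in vehicle cells, higher by 1.12%. The large subunit thus made up 57.9% of the ribosomal protein FPKM in erlotinib-resistant and 54.4% in vehicle cells, a share that no scaling between libraries can alter. It made up 58.7% in dual-resistant cells. Of the 31 small subunit genes, 12 were above 0 and 19 below in erlotinib-resistant against vehicle cells. Their sum changed by -7427 FPKM, with -1790 from RPS18, -1040 from RPS29 and -980 from RPS14. Between dual-resistant and vehicle cells the gap between the medians was -0.03, and in every comparison the spread within a subunit was wider than the gap. The small subunit median stayed below 0 in the 4 scalings tried. With equal medians of all genes, the medians of the large subunit and of all 78 genes were on the other side of 0, at -0.04 and -0.07.

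RPL22, a large subunit protein that mouse cells can live without (Entrez ID 6146, chromosome 1, 6245080 to 6259679), stood at 174 FPKM in erlotinib-resistant and 108 in vehicle cells, a log2 difference of 0.68 and the highest of the 78. RPL23 followed, at 2699 FPKM in erlotinib-resistant and 1873 in vehicle cells. RPL3, which lies near the site where the peptide bond forms, stood at 1764 FPKM in erlotinib-resistant and 1224 in vehicle cells (log2 difference 0.53). RPS28 and RPL7 had log2 differences of 0.46 each. All of these lay within the 2-fold limit.

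At the lower end stood mostly small subunit genes. RPS14, a small subunit protein whose loss of 1 copy underlies the anaemia of the 5q- syndrome (Entrez ID 6208, chromosome 5, 149823792 to 149829319), stood at 1838 FPKM in erlotinib-resistant and 2817 in vehicle cells, a log2 difference of -0.62. RPS10, a target of the ubiquitin ligase that marks stalled ribosomes, stood at 1159 FPKM in erlotinib-resistant and 1759 in vehicle cells (-0.60). RPS26, which lines the channel where mRNA leaves, stood at 216 FPKM in erlotinib-resistant and 320.2 in vehicle cells (-0.57). From the large subunit, RPL24 had a log2 difference of -0.54.

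**Figure D2:**
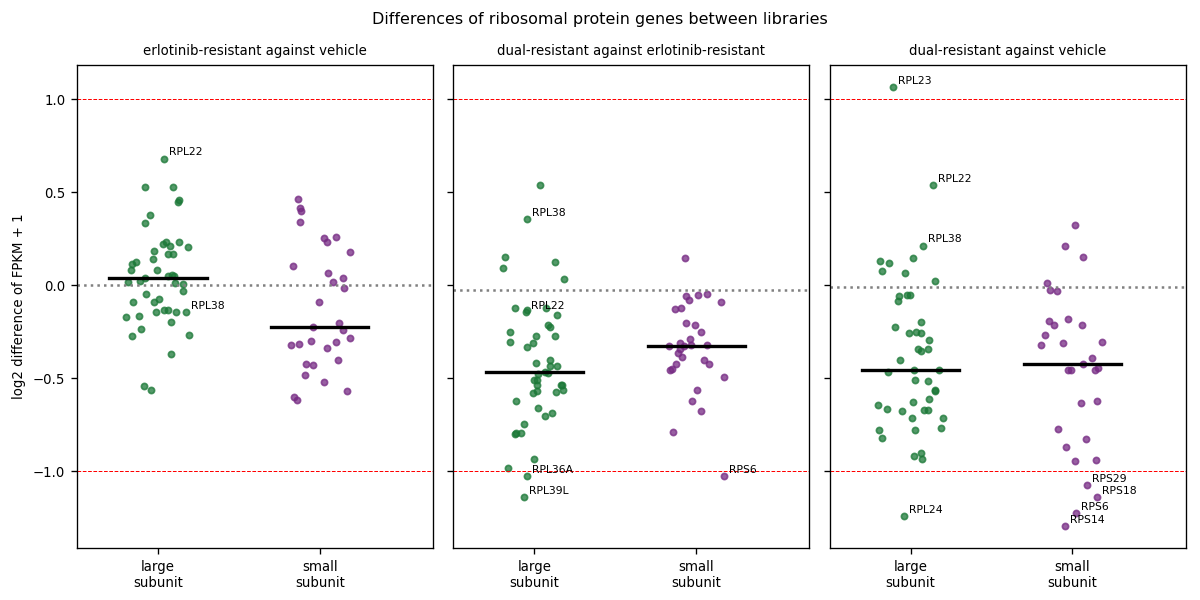
Log2 difference of FPKM + 1 for each large (47) and small (31) subunit gene in the 3 comparisons, 1 point per gene. Black bars are subunit medians, the dotted line is the median of all genes compared and dashed lines are the 2-fold limit, which 3 genes pass in the middle panel and 6 in the right one.

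Dual-resistant cells were next set against the erlotinib-resistant cells they came from. Nearly the whole family stood lower in dual-resistant cells, within the 2-fold limit for all but 3 genes, and 71 of the 78 genes were below 0 and 7 above. The median log2 difference was -0.39, or 1.31-fold lower, beside -0.03 over all 13385 genes compared. Of all these genes 51.6% were below 0. Past the 2-fold limit, 3 of the 78 were lower (3.85%) and none higher, where 7.22% of all genes were lower and 10.1% higher. The share past the limit was thus under that of all genes, while the middle of the family lay lower. Of 465 other genes with at least 100 FPKM in every library, 2.58% were lower and 4.30% higher. Among the 3 lower genes of the family, RPL39L was below 100 FPKM in every library, so these shares rest on unlike minimum levels. At a log2 limit of 0.5, 1 of the 78 was higher and 26 lower, where 21.2% of all genes were higher and 20.3% lower. With the FPKM sums of the libraries made equal, 66 of the 78 were below 0, beside 46.2% of all genes, and RPL39L alone passed the 2-fold limit.

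Markers of the cells themselves were also lower in this library. All 8 epithelial and lung markers examined were lowest in dual-resistant cells, a count that was not made over all genes and has no background. Their summed level was 1821 FPKM in dual-resistant, 3489 in erlotinib-resistant and 3878 in vehicle cells. EPCAM, an epithelial adhesion molecule, stood at 41.1 FPKM in dual-resistant, 345 in erlotinib-resistant and 306 in vehicle cells. CDH1, the cadherin of epithelial junctions, stood at 22.8 FPKM in dual-resistant, 194 in erlotinib-resistant and 172 in vehicle cells, and NAPSA, a protease of lung epithelium, at 10.1 FPKM in dual-resistant, 81.4 in erlotinib-resistant and 147 in vehicle cells. Differences were smaller for KRT8, at 542 FPKM in dual-resistant, 573 in erlotinib-resistant and 905 in vehicle cells. They were also smaller for NKX2-1, at 28.4 FPKM in dual-resistant, 40.0 in erlotinib-resistant and 56.0 in vehicle cells. The surfactant gene SFTPB was below 1 FPKM in dual-resistant and vehicle cells, and the other 7 markers were above it in every library. The part of this difference between the populations in the ribosomal protein values was not tested.

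Both subunits lay below 0. The median log2 difference was -0.47 for the large subunit, with 41 of 47 below 0, and -0.32 for the small subunit, with 30 of 31 below 0. The summed level was 58172 FPKM in dual-resistant and 73788 in erlotinib-resistant cells for the large subunit, and 40860.4 FPKM in dual-resistant and 53762 in erlotinib-resistant cells for the small subunit. The sum of the large subunit was lower by 21.2% and that of the small subunit by 24.0%.

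The 3 genes past the limit were RPL39L, RPS6 and RPL36A. RPS6, the small subunit protein that S6 kinases phosphorylate downstream of mTORC1 (Entrez ID 6194, chromosome 9, 19376254 to 19380235), stood at 1909.7 FPKM in dual-resistant, 3887 in erlotinib-resistant and 4466 in vehicle cells. It was 2.03-fold lower in dual-resistant than in erlotinib-resistant cells, and its level ranked 15 of 78 in dual-resistant, 5 in erlotinib-resistant and 4 in vehicle cells. RPL36A stood at 118 FPKM in dual-resistant, 242 in erlotinib-resistant and 185 in vehicle cells. Close to the limit were RPL41, the smallest of the ribosomal proteins, at 338 FPKM in dual-resistant, 669 in erlotinib-resistant and 647 in vehicle cells, and RPL13, at 298 FPKM in dual-resistant, 571 in erlotinib-resistant and 527 in vehicle cells. Only the dual-resistant library was low in these 2 genes, and the other libraries differed by log2 0.05 for RPL41 and 0.11 for RPL13.

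The 7 genes above 0 were RPL23, RPL38, RPL19, RPS26, RPLP2, RPL34 and RPL14, of which RPL34 and RPL14 were named after their values were seen. RPL23 (Entrez ID 9349, chromosome 17, 37006321 to 37010053), a large subunit protein that can bind the p53 ligase MDM2, stood at 3919 FPKM in dual-resistant, 2699 in erlotinib-resistant and 1873 in vehicle cells. It was 1.45-fold higher in dual-resistant than in erlotinib-resistant cells, and ranked 2 of 78 in dual-resistant, 14 in erlotinib-resistant and 30 in vehicle cells. RPL38, a large subunit protein needed in mouse embryos for translation of Hox mRNAs, stood at 1786 FPKM in dual-resistant, 1395 in erlotinib-resistant and 1541 in vehicle cells (log2 difference 0.36 against erlotinib-resistant cells). RPL19 stood at 4354 FPKM in dual-resistant, 3917 in erlotinib-resistant and 4123 in vehicle cells, and was the highest member in dual-resistant cells. RPS26 differed by 0.15 and RPLP2 by 0.12. All 7 lay within the limit.

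Across both steps, dual-resistant cells were set against vehicle cells. The family stood lower by a median log2 difference of -0.43, beside -0.01 over all 13378 genes compared. Of the 78 genes 65 were below 0, beside 50.6% of all genes. Among 467 other genes with at least 100 FPKM in every library, the median was -0.15 and 63.2% were below 0. Past the limit, 5 of the 78 were lower (6.41%) and 1 higher (1.28%), where 10.4% of all genes were lower and 11.0% higher. At a log2 limit of 0.5, 2 were higher and 32 lower, where 23.5% of all genes were higher and 23.7% lower. These counts depend on the scaling. With the FPKM sums made equal, 49 genes were below 0 and 29 above, beside 37.0% of all genes below 0, and 1 gene was lower by the 2-fold limit, beside 8.14% of all genes. That gene was RPS14, at -1.03, while RPL24 lay at -0.97, RPS6 at -0.96, RPS18 at -0.87 and RPS29 at -0.80. With the sums of the genes outside the family made equal, 53 were below 0 and 25 above, beside 39.0% of all genes below 0. By the 2-fold limit 3 were then lower, namely RPS14, RPL24 and RPS6, beside 8.48% of all genes. As deposited, the small subunit supplied 4 of the 5 lower genes, but the medians of the subunits lay close together, at -0.45 for the large and -0.42 for the small. Of the 78 genes, 63 were lowest in dual-resistant, 4 in erlotinib-resistant and 11 in vehicle cells. The same count was not made over all genes, so it has no background.

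The 5 lower genes were RPS14, RPL24, RPS6, RPS18 and RPS29. Apart from RPS29, the annotated starts shown above for them carry a tract. The start shown for RPS29 was not matched to the measured transcript, which may begin elsewhere. RPS14 stood at 1149 FPKM in dual-resistant cells, 2.45-fold lower than in vehicle cells. RPL24, a large subunit protein at the bridge to the small subunit (Entrez ID 6152, chromosome 3, 101399934 to 101405563), stood at 1095 FPKM in dual-resistant, 1780.4 in erlotinib-resistant and 2590.2 in vehicle cells. RPS18, at the head of the small subunit (Entrez ID 6222, chromosome 6, 33239852 to 33244281), stood at 2691 FPKM in dual-resistant, 4139.6 in erlotinib-resistant and 5929.9 in vehicle cells. It was the highest member in vehicle cells and ranked 6 in dual-resistant cells. For all 5 genes the dual-resistant library was the lowest and the vehicle library the highest. RPL23 was the 1 higher gene, by 2.09-fold. RPL22, RPSA, RPL38 and RPS25 came next, at log2 differences of 0.54, 0.33, 0.21 and 0.21.

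By role, the proteins of the stalk, which recruits the elongation factors, were all above 1000 FPKM in every library. RPLP0 stood at 1652 FPKM in dual-resistant, 2229 in erlotinib-resistant and 2024 in vehicle cells. RPLP1 stood at 2486 FPKM in dual-resistant, 3004 in erlotinib-resistant and 2974 in vehicle cells, and RPLP2 at 1882 FPKM in dual-resistant, 1727 in erlotinib-resistant and 1721 in vehicle cells. RPL12, at the base of the stalk, stood at 1467 FPKM in dual-resistant, 2539.9 in erlotinib-resistant and 2179 in vehicle cells. RPLP2 was thus the one of these 4 that was not lowest in dual-resistant cells.

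RPL5 and RPL11 join the large subunit with 5S ribosomal RNA and, when ribosome assembly fails, bind and block MDM2. RPL5 stood at 1758 FPKM in dual-resistant, 2499.6 in erlotinib-resistant and 2407 in vehicle cells, and RPL11 at 1218 FPKM in dual-resistant, 1502 in erlotinib-resistant and 1100.2 in vehicle cells. Of 14 genes of p53 and its targets, 3 were lower (21.4%) in dual-resistant against erlotinib-resistant cells and 4 (28.6%) against vehicle, with none higher. Of all genes, 7.22% were lower and 10.1% higher in the first comparison, and 10.4% and 11.0% in the second. In erlotinib-resistant against vehicle cells 2 of the 14 were lower, beside 6.03% of all genes. Between dual-resistant and vehicle cells, 10 of the 14 were below 0 and 4 above. These 4, named after their values were seen, were ZMAT3 (0.72), RRM2B (0.64), FAS (0.53) and BAX (0.33). The list leaves out RPS27L, described below. CDKN1A, the cell cycle inhibitor p21, stood at 3.44 FPKM in dual-resistant, 13.7 in erlotinib-resistant and 42.0 in vehicle cells, and GDF15, a secreted factor of the stress response, at 26.3 FPKM in dual-resistant, 328 in erlotinib-resistant and 515 in vehicle cells.

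RPSA, also known as a laminin receptor, stood at 487 FPKM in dual-resistant, 518 in erlotinib-resistant and 388 in vehicle cells. RPS27A, which is made as a fusion with ubiquitin, stood at 897 FPKM in dual-resistant, 1264 in erlotinib-resistant and 1228 in vehicle cells. RPS4X, a small subunit protein whose gene lies on the X chromosome, stood at 2455 FPKM in dual-resistant, 3156 in erlotinib-resistant and 2788 in vehicle cells.

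Of 8 paralogues outside the choice of genes, 1 was higher and 1 lower in dual-resistant against erlotinib-resistant cells, and 1 higher and 2 lower against vehicle. Of all genes, 10.1% were higher and 7.22% lower in the first comparison, and 11.0% and 10.4% in the second. RPS27L, a paralogue of RPS27 known as a p53 target, stood at 99.8 FPKM in dual-resistant, 23.8 in erlotinib-resistant and 21.6 in vehicle cells. RPS27 itself stood at 523 FPKM in dual-resistant, 702 in erlotinib-resistant and 532 in vehicle cells. RPS27L therefore held 16.03% of the summed level of the pair in dual-resistant, 3.28% in erlotinib-resistant and 3.89% in vehicle cells. RPL22L1, whose mRNA the RPL22 protein is known to repress in mouse, stood at 24.0 FPKM in dual-resistant, 70.9 in erlotinib-resistant and 54.8 in vehicle cells. It held 13.2% of the pair with RPL22 in dual-resistant, 28.99% in erlotinib-resistant and 33.6% in vehicle cells.

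RPL39L, the paralogue of RPL39 known from male germ cells (Entrez ID 116832, chromosome 3, 186838741 to 186857263), stood at 14.3 FPKM in dual-resistant, 32.7 in erlotinib-resistant and 27.6 in vehicle cells. RPL39 stood at 503 FPKM in dual-resistant, 845 in erlotinib-resistant and 948 in vehicle cells, so the paralogue held between 2.76% and 3.72% of the pair. RPL36AL stood at 222 FPKM in dual-resistant, 315 in erlotinib-resistant and 437 in vehicle cells, above RPL36A in every library. RPL26L1 was lower in dual-resistant than in vehicle cells, at 26.5 FPKM against 54.8, and RPL7L1 stood at 75.8 FPKM in dual-resistant, 86.6 in erlotinib-resistant and 72.7 in vehicle cells.

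**Figure D3:**
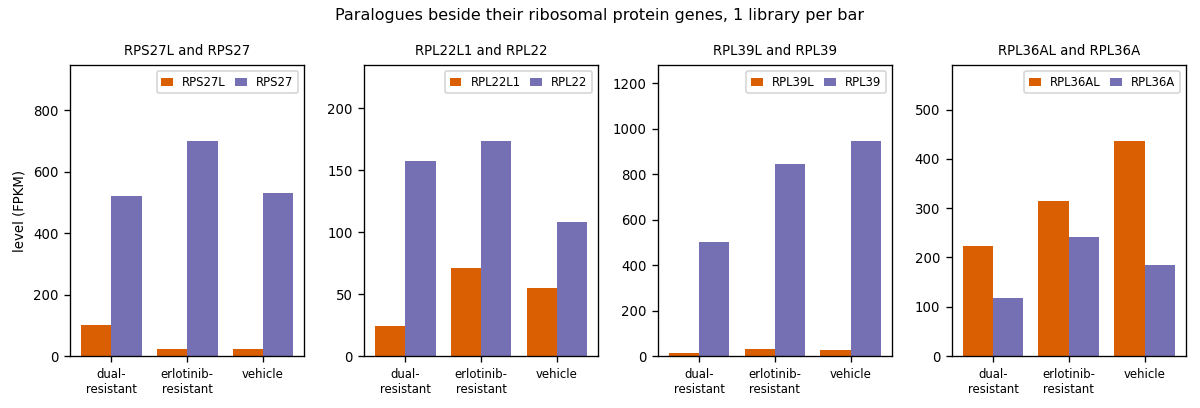
Levels in FPKM, on linear axes from 0, of 4 paralogues and their ribosomal protein genes in the 3 libraries, 1 library per bar. RPS27L is highest in dual-resistant cells at 99.8 FPKM, RPL22L1 is lowest there at 24.0 FPKM, and RPL36AL is above RPL36A in each library.

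Position on the chromosomes was set beside the differences. For each ribosomal protein gene, the other genes with at least 5 FPKM in a library and within 1 Mb to either side were taken, and 77 of the 78 had at least 3 such neighbours. In dual-resistant against erlotinib-resistant cells, Spearman's rho between a gene's log2 difference and the median of its neighbours was 0.50, and 0.46 without RPL23 and RPL19. It was 0.41 against vehicle, and 0.26 for erlotinib-resistant against vehicle cells. These values come from the same libraries on both axes, close genes share neighbours, and they are a description across genes. The ribosomal protein gene lay below the median of its neighbours for 69 of 77 genes in dual-resistant against erlotinib-resistant cells, by a median of 0.32. It did so for 62 of 77 in dual-resistant against vehicle cells and for 40 of 77 in erlotinib-resistant against vehicle cells. These counts were not made for genes outside the family, so they have no background.

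RPL23 and RPL19 lie in a stretch of 17q12 in which many genes stood higher in dual-resistant cells. Around RPL23, 11 of 22 neighbours passed the 2-fold limit upward against vehicle cells and 2 downward. Of all genes compared, 11.0% passed it upward and 10.4% downward. The median of 1.003 around RPL23 was the highest around any of the 77 genes. Around RPL19, 11 of 29 passed it upward and 2 downward (median 0.77), while RPL19 itself differed by 0.08. The 12 neighbours of RPS14 and the 4 of RPS6 had medians of -0.12 and 0.09 in that comparison. The genes themselves had log2 differences of -1.29 and -1.23. Around RPS14, 4 neighbours passed the limit upward and 1 downward, and around RPS6 the neighbours ran from -0.48 to 0.65. The 8 neighbours of RPL24 had a median of -0.39. Around RPS18, 9 of 30 neighbours were lower and none higher (median -0.74). The part of gene copies in these differences was not tested.

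**Figure D4:**
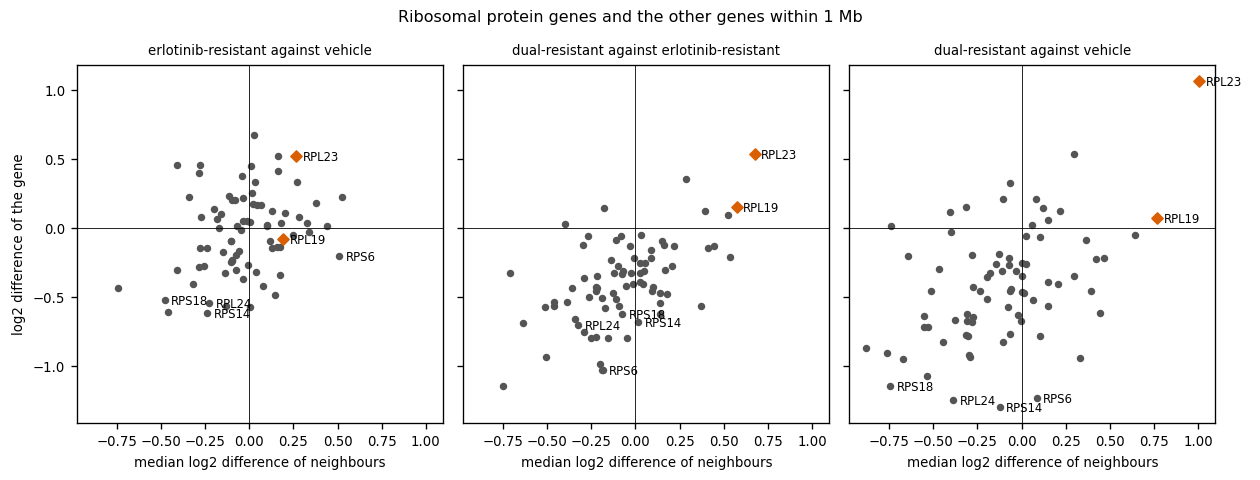
Log2 difference of each ribosomal protein gene (vertical axis) against the median log2 difference of the other genes within 1 Mb (horizontal axis) in the 3 comparisons, 77 genes each. Orange diamonds are RPL23 and RPL19, which lie at the right, with neighbour medians of 1.003 and 0.77 in the right panel. RPS14 and RPS6 lie low there, with neighbour medians of -0.12 and 0.09.

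Other genes of translation were described from lists of named genes. Beside the counts in these lists, 7.22% of all genes were lower and 10.1% higher in dual-resistant against erlotinib-resistant cells. Against vehicle, 10.4% were lower and 11.0% higher in dual-resistant cells, and 6.03% lower and 3.81% higher in erlotinib-resistant cells. Of 16 other mRNAs of translation known to carry a TOP tract, none passed the limit in dual-resistant against erlotinib-resistant cells, where 13 of 16 were below 0 with a median of -0.28. Against vehicle their median was 0.11, with 10 above 0 and 6 below, and 1 was lower by the limit. Their quartiles there lay at -0.58 and 0.26. The median of the ribosomal protein genes was -0.43, and the difference between these medians was not tested. TPT1, which encodes a growth-related protein, stood at 1702 FPKM in dual-resistant, 2736 in erlotinib-resistant and 3752 in vehicle cells. EEF2, named after its values were seen, the elongation factor that moves the ribosome along, stood at 1071 FPKM in dual-resistant, 1529.6 in erlotinib-resistant and 896 in vehicle cells. GNB2L1 (RACK1), a scaffold on the small subunit, stood at 1195 FPKM in dual-resistant, 1898 in erlotinib-resistant and 2076 in vehicle cells. EIF4B, a helper of the initiation helicase, stood at 147 FPKM in dual-resistant, 235 in erlotinib-resistant and 120.1 in vehicle cells.

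Of 38 biogenesis factors, 1 was lower and none higher in dual-resistant against erlotinib-resistant cells, with a median of -0.15, and none passed the limit in the other comparisons. That gene was NOB1, which cuts the RNA of the small subunit to its final length, at 60.3 FPKM in dual-resistant, 160.02 in erlotinib-resistant and 98.0 in vehicle cells. Of 15 genes of RNA polymerase I and its factors, 2 were lower in dual-resistant against erlotinib-resistant cells and none higher (median -0.03), with ZNRD1, a polymerase subunit, at 14.1 FPKM in dual-resistant, 34.6 in erlotinib-resistant and 39.2 in vehicle cells. In erlotinib-resistant against vehicle cells none of the 15 passed the limit, with a median of 0.30. Of 26 initiation factors, 1 was lower in dual-resistant than in erlotinib-resistant cells and none higher (median -0.18). It was EIF2B2, a subunit of the exchange factor of eIF2, at 15.2 FPKM in dual-resistant, 31.6 in erlotinib-resistant and 36.5 in vehicle cells.

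Of 12 noncoding host genes of small nucleolar RNAs, 4 were lower (33.3%) and 1 higher (8.33%) in dual-resistant against erlotinib-resistant cells, with a median of -0.76. Of all genes, 7.22% were lower and 10.1% higher in that comparison. Several of these host genes also begin with a TOP tract. GAS5 stood at 612 FPKM in dual-resistant, 1236 in erlotinib-resistant and 1408 in vehicle cells. SNHG5 stood at 33.8 FPKM in dual-resistant, 70.5 in erlotinib-resistant and 101.9 in vehicle cells, and SNHG1 at 58.6 FPKM in dual-resistant, 123 in erlotinib-resistant and 79.98 in vehicle cells. In erlotinib-resistant against vehicle cells 1 of the 12 was higher and none lower. SNHG9, named after its values were seen, was the higher gene of dual-resistant cells, at 18.5 FPKM in dual-resistant and 8.73 in erlotinib-resistant cells.

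Regulators were looked at next. None of 16 genes of mTORC1 and its outputs passed the limit in erlotinib-resistant against vehicle or in dual-resistant against erlotinib-resistant cells, and 1 was lower in dual-resistant against vehicle cells. This was EIF4EBP1, the repressor of initiation that mTORC1 inactivates, at 124 FPKM in dual-resistant, 225 in erlotinib-resistant and 285 in vehicle cells. MYC, a driver of ribosome production, stood at 309.9 FPKM in dual-resistant, 359.6 in erlotinib-resistant and 201 in vehicle cells. Of 12 genes of ribosome quality control, 1 was lower and none higher in dual-resistant against erlotinib-resistant cells. It was ZNF598, the ligase of stalled ribosomes whose targets include RPS10, at 28.5 FPKM in dual-resistant, 68.0 in erlotinib-resistant and 56.8 in vehicle cells. In erlotinib-resistant against vehicle cells 2 of the 12 were higher, ZAK and LTN1, and EDF1 was lower.

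The mitochondrial ribosome had 76 proteins compared, all encoded in the nucleus. Its median log2 difference was -0.12 in dual-resistant against erlotinib-resistant cells, with 2 higher and 1 lower. It was -0.33 in erlotinib-resistant against vehicle cells. Between dual-resistant and vehicle cells it was -0.27, with 60 of 76 below 0, 2 higher and 6 lower. Of all genes, 50.6% were below 0 in that comparison, 10.4% lower and 11.0% higher. The 14 core subunits of the proteasome had a median of 0.22 in dual-resistant against erlotinib-resistant cells, with 1 higher, and of -0.42 in erlotinib-resistant against vehicle cells. Both lists hold a gene of the 17q12 stretch that was higher in dual-resistant than in erlotinib-resistant cells. MRPL45 stood at 173 FPKM in dual-resistant, 63.4 in erlotinib-resistant and 49.6 in vehicle cells, and PSMB3 at 475 FPKM in dual-resistant, 229.8 in erlotinib-resistant and 305 in vehicle cells. Among 465 other genes with at least 100 FPKM in every library, the median was -0.02 in dual-resistant against erlotinib-resistant cells, with 20 higher and 12 lower. These medians stand side by side without a test of their difference.

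**Figure D5:**
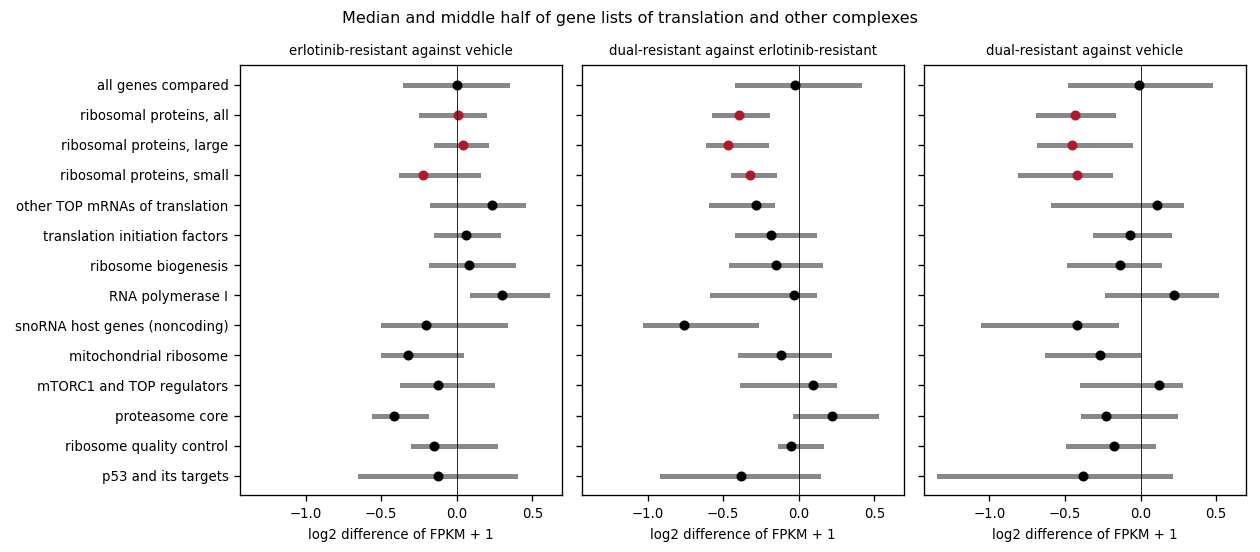
Median (point) and interquartile range (bar) of the log2 difference of FPKM + 1 for all genes compared, the ribosomal protein genes (red) and lists of other genes in the 3 comparisons. In the middle panel the ribosomal protein medians lie at -0.39, -0.47 and -0.32 for all, large and small, and that of the small nucleolar RNA hosts at -0.76.

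The scaling between libraries bears on these medians. The FPKM of all genes summed to 494817 in dual-resistant, 528920 in erlotinib-resistant and 596084 in vehicle cells. When these sums were made equal, the median of all genes moved by 0.23 in dual-resistant against vehicle, by 0.08 in dual-resistant against erlotinib-resistant and by 0.14 in erlotinib-resistant against vehicle cells. Relative to the median of all genes, the ribosomal protein genes then lay at -0.39 in dual-resistant against vehicle, -0.35 in dual-resistant against erlotinib-resistant and 0.04 in erlotinib-resistant against vehicle cells. As deposited they lay at -0.42, -0.37 and 0.0092 in those comparisons. The higher genes among all calls made up 53.6% in erlotinib-resistant against vehicle cells with equal sums, and 38.7% as deposited, and 65.7% in dual-resistant against vehicle cells with equal sums, and 51.3% as deposited. The 1st percentile of FPKM times length over single-exon genes was taken as the worth of 1 fragment, an assumption that was not tested. On it, 100 FPKM in a transcript of 1 kb stood for about 4316 fragments in dual-resistant, 4743 in erlotinib-resistant and 6879 in vehicle cells. Counting alone would then add an error of about 1.52% in dual-resistant, 1.45% in erlotinib-resistant and 1.21% in vehicle cells at that level. Of 7 markers of blood, vessel and fibroblast cells, 1 in dual-resistant cells (PDGFRB, at 1.01 FPKM) and none in the other libraries reached 1 FPKM.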

How the data were processed

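The authors deposited FPKM per gene for each library. The submitters' processing notes list TopHat 1.3, Cufflinks 1.3 and GRCh37, with no settings. Which annotation and strand setting were used, and how fragments matching several copies were treated, is not given in the sources used here. Rows under 1 symbol were added up, and missing cells stayed missing. Libraries were compared by the log2 of FPKM + 1, a scale that understates differences where levels are low. The 13425 genes that reach 1 FPKM somewhere were compared and called at a log2 difference of 1 or more. With 1 library per group no test is possible.

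The genes and lists were chosen with earlier results of these data known. Named genes are the 5 highest and 5 lowest differences in each comparison, the 5 highest and 5 lowest levels, genes with a stated role, and up to 4 genes with a large difference from each list, and others are marked as named after their values were seen. Start positions were taken to count from 0 and are given from 1. Promoters came from RefSeq (GRCh38.p14), matched by Entrez ID, and pseudogenes from GENCODE 29, matched by symbol. Python 3.11.15, pandas 2.3.3 and SciPy 1.17.1 were used. The script for differences was tested on simulated data. The alternatives are given in the closing section. Values of some genes are not reported here.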

Additional observations from a re-analysis of the deposited data

How the results depend on the processing

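No paired analysis was possible because each group has 1 library, which also leaves no replicate to leave out. With no spread to judge by, a median was taken to have moved at 0.1 or more on the log2 scale, a share at 1 percentage point and a count at over 1.5 times. Of the recomputed summary values, 165 stayed within these limits and 24 did not. With equal sums the median was 0.18 for erlotinib-resistant against vehicle cells and -0.16 for dual-resistant against vehicle cells, and 1 gene was lower in dual-resistant cells against either other library. With equal sums of the genes outside the family, chosen after seeing the data, the medians were 0.21 and -0.21, and 3 genes were lower in dual-resistant against vehicle cells. The small subunit median in erlotinib-resistant against vehicle cells was then -0.02, and -0.05 with equal sums of all genes. At a log2 limit of 0.5, 3 genes were higher and 6 lower in erlotinib-resistant against vehicle cells, 1 and 26 in dual-resistant against erlotinib-resistant cells, and 2 and 32 in dual-resistant against vehicle cells. Among all genes the shares at that limit were 16.0% and 17.4%, 21.2% and 20.3%, and 23.5% and 23.7%. With a pseudocount of 10, 1 gene was lower in dual-resistant against erlotinib-resistant cells.

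The other alternatives were chosen after seeing the data. With only the genes that have fewer than 10 pseudogenes, 1 gene was lower in dual-resistant against erlotinib-resistant and 3 against vehicle cells, and the large minus small gap against vehicle was -0.14. Their share of all FPKM was 11.5% in dual-resistant, 12.8% in erlotinib-resistant and 12.4% in vehicle cells, and the large subunit share was 62.1% in dual-resistant, 60.9% in erlotinib-resistant and 57.8% in vehicle cells. The share of all FPKM is lower because the sum holds fewer genes. Without chromosome 17, 0 genes were higher in dual-resistant against vehicle cells, since RPL23 lies there. In all 4 scalings the medians in both comparisons of dual-resistant cells stayed below 0.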

Other observations

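The table also holds 25 rows named as pseudogenes of ribosomal protein genes, which are not among the 78 genes described. Those that reach 1 FPKM in a library count among all genes compared. Of these, 9 reached 1 FPKM in dual-resistant, 8 in erlotinib-resistant and 8 in vehicle cells, and together they summed to 56.2 FPKM in dual-resistant, 56.5 in erlotinib-resistant and 38.5 in vehicle cells. RPL13AP20 stood at 14.5 FPKM in dual-resistant, 6.19 in erlotinib-resistant and 1.99 in vehicle cells, while RPL13A, named after its values were seen, stood at 1005 FPKM in dual-resistant, 1122 in erlotinib-resistant and 1195 in vehicle cells. Reads of RPL13A and its copies cannot be told apart here. The readthrough gene RPL36A-HNRNPH2 stood at 25.6 FPKM in dual-resistant, 33.3 in erlotinib-resistant and 54.7 in vehicle cells.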
